A study of Mus musculus with 18 samples.

Results

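Bulk RNA from intact mouse urinary bladder was compared with bulk RNA from bladders that had been taken apart into dissociated cells. The comparison used the 3 bulk libraries of whole tissue and the 3 of dissociated bladder, 6 of the 18 samples of the series. All 6 libraries came from C57BL/6 females of 12 months. They shared the same preparation, with homogenization, column isolation of RNA and selection of polyadenylated RNA, so the 2 groups differed in dissociation alone as far as the labels say. Each library is labelled with 3 females, and whether a library is a pool of 3 animals is not given. The p-values therefore measure the spread between these libraries, which may in part be technical. The steps of the dissociation are not given in the sources used here.

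The bladder wall is an epithelium, the urothelium, on a layer of fibroblasts, vessels and nerves, with the smooth muscle of the detrusor outside it. To obtain single cells, a tissue is cut and treated with enzymes that digest the matrix between cells, and the cells are kept out of their tissue for some time before RNA is isolated. A dissociated sample can therefore differ from the tissue in the mix of cells that survive and in the transcripts that the cells make or lose on the way. Comparing both preparations by the same bulk assay asks which transcripts differ in level between them.

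The libraries held 23083752 to 68760791 counted reads, and the deepest was intact replicate 2. Levels are given as CPM, read counts relative to the scaled library size in units of 1000000 reads, and changes as fitted log2 fold changes, dissociated over intact, with their standard errors (SE). A gene was called higher or lower at an edgeR adjusted p under 0.05, and only called genes are said to have risen or fallen. Of 16538 genes tested, 4620 (27.9%) rose and 5178 (31.3%) fell, so that 59.2% were called and a called gene is not an unusual gene in this comparison. The median log2 fold change of all tested genes was -0.03, and their interquartile range ran from -0.47 to 0.52. The functional lists are therefore read against these shares. Scaling by library size alone would move the median of all genes to -0.14.

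The cell types of the wall were present in both preparations at different levels. The summed level of 10 smooth muscle markers was 39847 to 42109 CPM in intact tissue and 2372 to 3536 CPM after dissociation, and all 10 fell. The sum of 12 fibroblast markers was 16909 to 20251 CPM in tissue and 35294 to 50955 CPM in dissociated bladder, with 11 of 12 members higher. Of 14 urothelial markers 3 rose (Krt8, Krt19 and Epcam), 6 fell, 5 of them uroplakins, and their sum was 6883 to 7996 CPM against 5452 to 8403 CPM; the call of Krt19 (0.55) was lost without intact replicate 2 or 3 or dissociated replicate 3 (edgeR adjusted p up to 0.12), and under library-size or upper-quartile scaling (edgeR adjusted p = 0.065 and 0.051). Blood endothelial markers rose in 7 of 8 cases and macrophage markers in 9 of 9. Of 7 tested adipocyte markers 6 fell, and Lep had no read in 2 dissociated libraries. Erythroid markers rose in 5 of 5 cases, from sums of 70.1 to 79 CPM to 309.8 to 379 CPM, and of 8 tested skeletal muscle markers 2 rose and 3 fell, their sum going from between 550.3 and 706 CPM to between 53.8 and 70.4 CPM. Pericyte markers rose in 2 of 7 cases and fell in 4, Schwann cell markers in 1 and 4 of 6, neuronal markers in 4 and 1 of 6 tested, interstitial cell markers in 3 and 1 of 5 and mesothelial markers in 1 and 1 of 6. The neuronal sum, however, was 258 to 277 CPM in tissue and 139.8 to 183 CPM after dissociation. Its most abundant marker, Uchl1, fell (-1.09). The 4 that rose, Snap25, Tubb3, Prph and Stmn2, had means of 0.498 to 11.4 CPM in tissue. The called mesothelial markers, Krt19 (0.55) and Upk3b (-0.82), are also counted among the urothelial markers. In bulk RNA, fewer cells of a type and less RNA per cell cannot be told apart.

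To describe functions beyond muscle identity and the immediate-early response, genes were grouped into 46 lists by function, holding 1313 tested genes, of which 881 were called. The lists were not cleared of muscle or immediate-early genes. Ckm, for example, is also a skeletal muscle marker, and Myc, Btg2, Cyr61 and Per1 are known as immediate-early genes. These are examples only. Other members with large rises, among them Ppp1r15a, Gadd45b, Plk3, Nfil3, Bhlhe40, Kdm6b and Thbs1, were not sorted into immediate-early genes and others. Their medians ranged from -0.81 for potassium channels to 1.14 for matrix proteases and their inhibitors. In 6 of these lists no member was called in one direction; there, 0 members had an unadjusted p under 0.05 in that direction by edgeR and DESeq2 called 0. The plot of all lists shows differently shaped clouds. Cytoplasmic ribosomal proteins (0.13 to 0.47) and the proteasome subunits of the proteasome list (-0.46 to 0.02) formed the narrowest clouds of these lists, on opposite sides of 0. Collagens ran from 0.46 to 1.84 and interferon genes from -0.25 to 5.36. Potassium channels ran from -5.46 to 2.08 and transmitter and peptide receptors from -5.72 to 5.09.

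**Figure D1:**
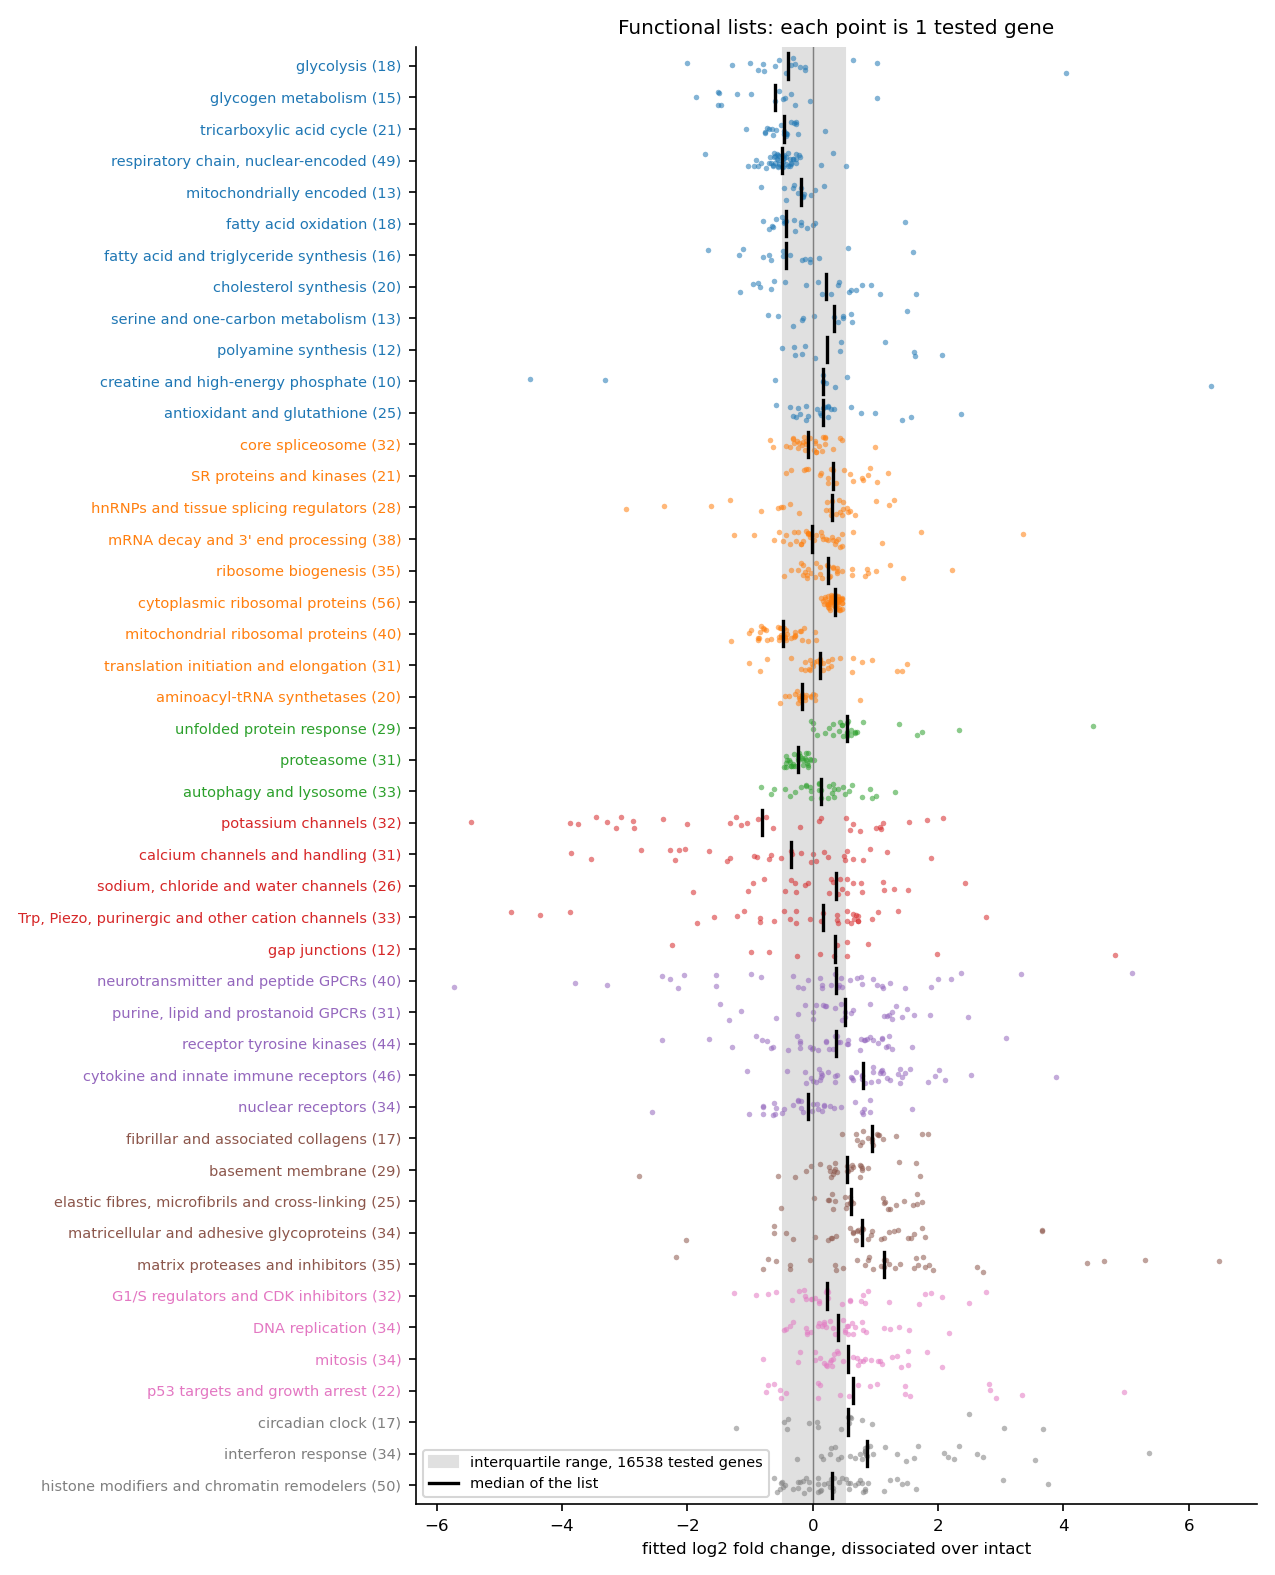
Fitted log2 fold change (dissociated over intact, horizontal axis) of each tested gene in 46 functional lists, with the number of tested genes in brackets; colours mark 8 broad functions, black bars the list medians and the grey band the interquartile range of all 16538 tested genes, from -0.47 to 0.52. Potassium channels have the lowest median (-0.81) and matrix proteases the highest (1.14).

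The genes of energy metabolism were mostly lower after dissociation. Of 18 glycolysis genes 12 fell and 3 rose, with a median of -0.39. Of 21 genes of the tricarboxylic acid cycle 18 fell and 1 rose (median -0.45), and of 49 nuclear genes for respiratory chain subunits 44 fell and 1 rose (median -0.49). Fatty acid oxidation showed 13 of 18 lower (median -0.43) and glycogen metabolism 11 of 15 lower (median -0.60). Each of these shares of fallen genes was above the 31.3% of all tested genes.

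Within glycolysis, Hk2, Ldha and Pgam2 were the 3 members that rose. Hk2, the inducible hexokinase that brings glucose into the pathway, was at 20.8, 20.5 and 20.5 CPM in intact tissue and at 329, 289 and 399 CPM after dissociation. It rose by 4.04 ± 0.14 on the log2 scale (edgeR adjusted p = 1.1e-06), and each dissociated library was more than 10 times above each intact one. Ldha, the lactate dehydrogenase subunit that favours lactate production, was at 259, 260 and 247 CPM and then at 362, 375 and 465 CPM, a rise of 0.65 ± 0.11 (edgeR adjusted p = 0.0016). Pgam2, the muscle phosphoglycerate mutase, was at 0.553 to 1.18 CPM in tissue and at 1.62 to 2.03 CPM after dissociation (log2 fold change 1.03, edgeR adjusted p = 0.021), a call lost without intact replicate 3 or dissociated replicate 1.

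Among the glycolytic members that fell, Eno3, the muscle enolase, went from 65.6, 53.3 and 73.6 CPM to 17.5, 17.1 and 13.2 CPM, a log2 fold change of -2.0 ± 0.15 (edgeR adjusted p = 3.4e-05). Phosphofructokinase catalyses the committed step of glycolysis, and its muscle subunit Pfkm and its platelet subunit Pfkp had log2 fold changes of -1.0 and -1.28. Pkm, the pyruvate kinase of most tissues, changed less, from 1023 to 1100 CPM in tissue to 769 to 928 CPM, and its call (log2 fold change -0.35, edgeR adjusted p = 0.019) was lost when intact replicate 1 or 3 or dissociated replicate 1 or 2 was left out.

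Glycogen is the stored form of glucose, made by glycogen synthase and broken down by phosphorylase. Pygb, the brain-type phosphorylase, was at 845, 764 and 802 CPM in intact tissue and at 227, 203 and 233 CPM in dissociated bladder. Its log2 fold change was -1.86 ± 0.09 (edgeR adjusted p = 5e-06), with no overlap between the groups. Gys1, the muscle glycogen synthase, had a log2 fold change of -1.49, and the targeting subunit Ppp1r3c, which brings a phosphatase to glycogen, had -1.51. Pgm1, a phosphoglucomutase at the junction of glycogen and glycolysis, was the 1 member that rose (1.03 ± 0.16, edgeR adjusted p = 0.0011), while Pygl and Phka1, for the liver phosphorylase and a phosphorylase kinase subunit, were not called.

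Mitochondrial energy genes fell in most cases and by small steps. Cox6c, a subunit of cytochrome c oxidase, was at 292, 324 and 332 CPM in tissue and at 96.1, 94.4 and 97.7 CPM after dissociation. Its log2 fold change of -1.72 ± 0.08 (edgeR adjusted p = 4e-06) was the lowest of the 49 subunits, and Ndufa4 followed at -1.04. Suclg1, a subunit of succinyl-CoA ligase, fell from 95.2, 96.8 and 102 CPM to 45.7, 46.9 and 48.1 CPM (-1.06 ± 0.07, edgeR adjusted p = 1.5e-05). The exceptions were small: Pdhb of pyruvate dehydrogenase (0.19) and Atp5d of ATP synthase (0.33) rose, and both calls were lost when any 1 of the 3 intact libraries was left out and under library-size or upper-quartile scaling. That of Pdhb was also lost without dissociated replicate 1 or 3. With a library left out, the edgeR adjusted p was up to 0.13 for Pdhb and up to 0.095 for Atp5d. Cox7a1, the muscle form of a cytochrome c oxidase subunit, had the highest value (0.53) and was not called.

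The genes that the mitochondrial genome itself encodes had a median of -0.19. Of 13 such genes only mt-Nd5 and mt-Nd6 fell (-0.43 and -0.45), and none rose. mt-Co1, the catalytic subunit of cytochrome c oxidase, was at 10669, 10980 and 10479 CPM in tissue and at 9928, 9544 and 8668 CPM after dissociation; the groups did not overlap, yet the difference was not called (-0.19 ± 0.10, edgeR adjusted p = 0.13). Under scaling by library size alone 6 of the 13 were called lower. For 6 members, among them mt-Co2, mt-Co3 and mt-Atp6, no library exceeded 8.19 CPM. Near-identical nuclear copies of parts of the mitochondrial genome exist and can share reads, so the values of these 6 are uncertain.

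Mitochondria also make their own ribosomes from nuclear genes. Of 40 mitochondrial ribosomal protein genes 33 fell and 0 rose at the edgeR threshold, with a median of -0.48. Mrpl44 had the lowest named value (-1.30 ± 0.12, edgeR adjusted p = 7.6e-05), from 26.7, 22.7 and 24.3 CPM to 9.51, 11.2 and 9.17 CPM. The summed level of the 40 genes was 1037 to 1062 CPM in intact tissue and 753 to 763 CPM in dissociated bladder. The smooth muscle marker sum fell beside all these metabolic lists, as given above, and its part in them was not tested.

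Lipid and sterol genes were mixed. Among 16 genes of fatty acid and triglyceride synthesis 9 fell and 2 rose. The sum of 7 tested adipocyte markers, 6 of which fell, went from between 339 and 464 CPM to between 127 and 199.6 CPM beside them, and its part was not tested. Dgat1, which makes triglyceride from diglyceride, rose by 1.6 ± 0.11 (edgeR adjusted p = 1.8e-05), from 22.4, 19.6 and 22.5 CPM to 56.7, 67.4 and 70.2 CPM. The elongase Elovl6 (-1.17) and the acyltransferase Gpam (-1.12), which starts glycerolipid synthesis, fell. In fatty acid oxidation the 1 member that rose was Cpt1b, the muscle carnitine palmitoyltransferase, at most 1.3 CPM in every library and no longer called without intact replicate 1 or 2 or dissociated replicate 1, while Acadl, a dehydrogenase of long-chain fatty acids, went from 172 to 173 CPM in tissue to 97.4 to 120 CPM (-0.69, edgeR adjusted p = 0.00052).

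Cholesterol genes moved both ways. Insig1, which holds the sterol sensor in the endoplasmic reticulum, was at 34.3, 42.2 and 40.5 CPM in tissue and at 79.8, 77.9 and 90.7 CPM after dissociation (1.08 ± 0.10, edgeR adjusted p = 9.7e-05). Among the members that fell were Lss (-1.16) and Dhcr7 (-0.95), enzymes that act after squalene. In all, 7 of 20 members rose (35.0%) and 6 fell (30.0%), against 27.9% and 31.3% of all tested genes. The median of 0.22 became -0.01 when dissociated replicate 3 was left out, and 4 members were called higher without intact replicate 1.

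Polyamines are small cations that bind nucleic acids. Odc1, ornithine decarboxylase, which starts their synthesis, was at 56.8, 58.8 and 57.7 CPM in intact tissue and at 171, 200 and 168 CPM in dissociated bladder (1.63 ± 0.09, edgeR adjusted p = 7.1e-06). Sat1, which acetylates polyamines for breakdown or export, went from 154, 154 and 155 CPM to 637, 600 and 689 CPM (2.06 ± 0.09, edgeR adjusted p = 2.4e-06). Azin1, which protects ornithine decarboxylase from degradation, had 1.62 and the spermine oxidase Smox 1.16. The synthases Srm and Sms, which carry out the later steps, had log2 fold changes of 0.04 and -0.12 and were not called. Over the list 6 of 12 rose and 1, Oaz2, fell; the call of Oaz2 (-0.28) was lost without intact replicate 1 or 2 or dissociated replicate 2 or 3, and under relative log expression (RLE) factors or DESeq2.

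The creatine kinases Ckm and Ckb, which buffer ATP in muscle and brain, had the largest falls of the metabolic lists. Of 10 creatine and phosphate genes 2 rose and 3 fell, the least of the 3 being Ak1 (-0.60); 5 were called higher without dissociated replicate 2. The smooth muscle and skeletal muscle marker sums fell beside the kinases, from means of 41056 to 3006 CPM and of 613 to 62.9 CPM, and their part was not tested. Most of the skeletal muscle sum in tissue was Acta1, at a mean of 463 CPM, and of its 8 tested markers 2 rose and 3 fell. Ckm is itself one of the skeletal muscle markers. Ckb, the cytosolic brain form, was at 1194, 1024 and 1028 CPM in tissue and at 136, 109 and 81.8 CPM after dissociation (-3.31 ± 0.19, edgeR adjusted p = 9.2e-06). Ckm, the muscle form, went from 105, 109 and 110 CPM to 7.17, 4.45 and 2.45 CPM (-4.51 ± 0.30, edgeR adjusted p = 2.2e-05). Gatm, the first enzyme of creatine synthesis, rose (0.54), and the creatine transporter Slc6a8 was not called (0.16). Ampd1, a muscle AMP deaminase, was also called higher; it had 0, 2 and 0 reads in intact tissue and 41, 38 and 42 reads after dissociation, and no fold is given for it.

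The genes of defence against oxidants were led by a few inducible members. Hmox1, heme oxygenase, rose from 17.9, 22.9 and 22.8 CPM to 104, 102 and 124 CPM (2.37 ± 0.13, edgeR adjusted p = 6.2e-06). Txnrd1, thioredoxin reductase, had 1.42 and Srxn1, sulfiredoxin, 0.99. Of 25 members 7 (28.0%) rose, near the 27.9% of all tested genes, and 4 fell. The 4 were Prdx3, G6pdx, Taldo1 and Sod2, none below -0.59, and the median was 0.17. Of these 4 only Prdx3 stayed called when each library was left out in turn: Taldo1 and Sod2 were lost without any 1 intact library or dissociated replicate 1 or 2 (edgeR adjusted p up to 0.15 and 0.17), and G6pdx without intact replicate 1 or 3 or dissociated replicate 1 or 2 (up to 0.086). DESeq2 called 12 members higher and 2 lower, and 7 were called lower under library-size scaling or without dissociated replicate 3. The serine and one-carbon list was small in level, with sums of 198 to 227 CPM in all 6 libraries; 5 of 13 rose, led by Mthfd2 of the mitochondrial folate pathway (1.5), and Shmt2 and Aldh1l1 fell. The count of 5 became 1 under scaling by library size alone or without intact replicate 1, 3 without intact replicate 2, and 2 without intact replicate 3 or dissociated replicate 2.

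**Figure D2:**
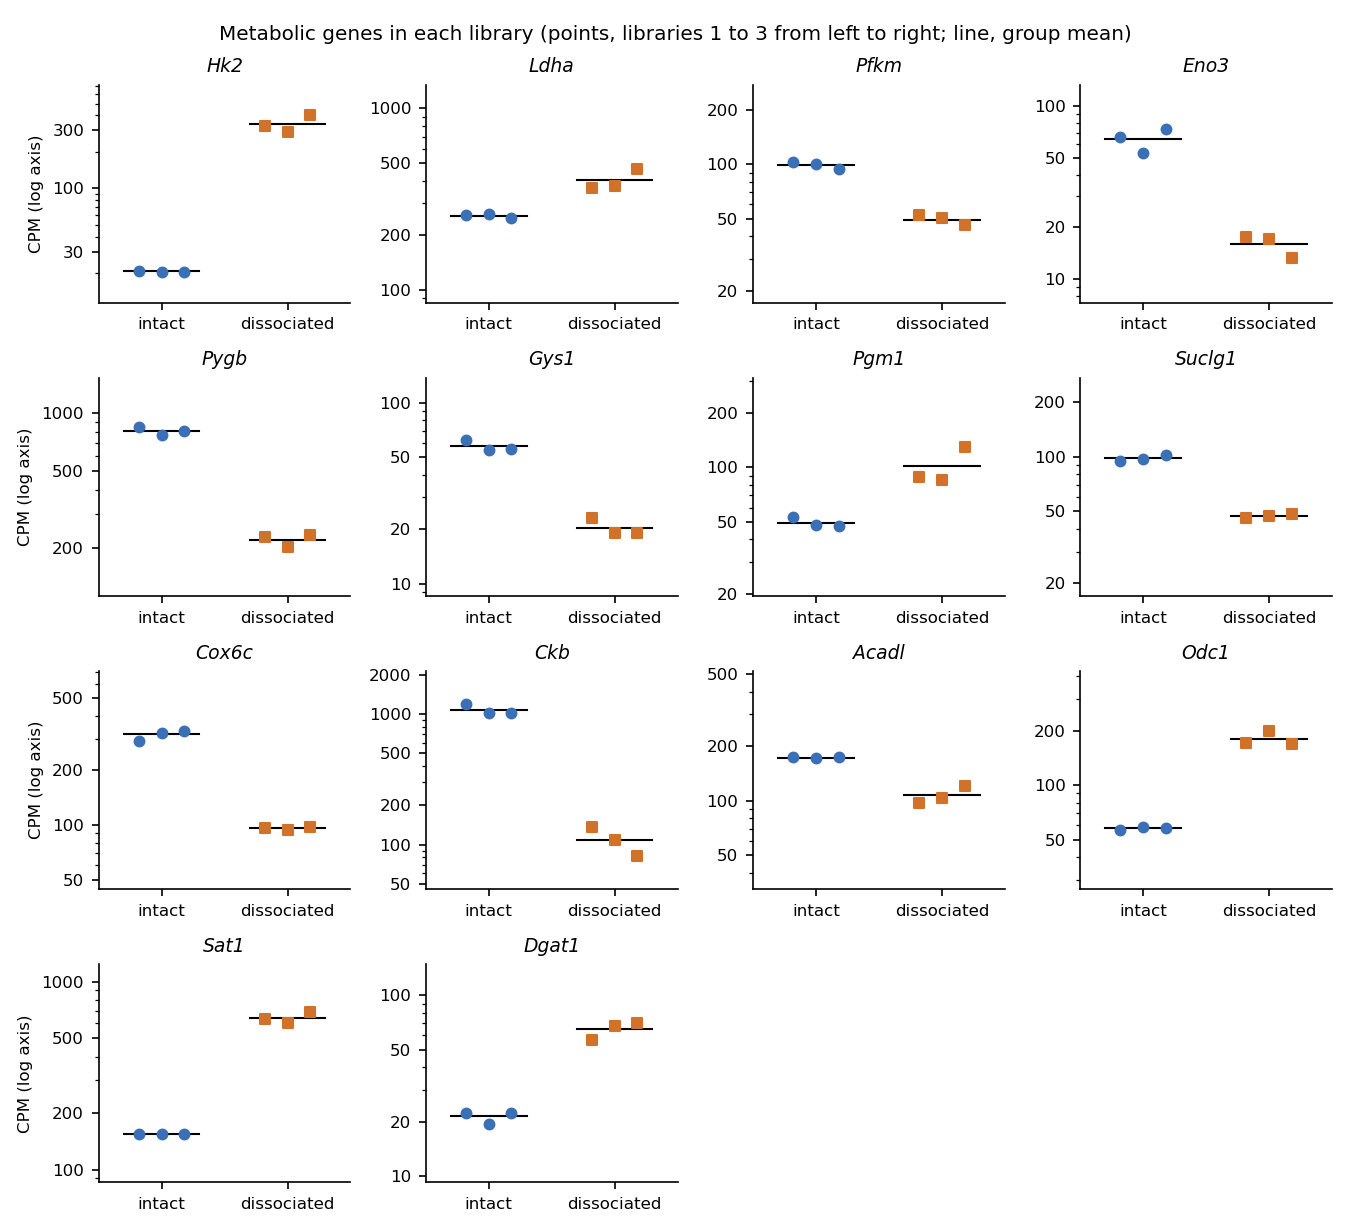
CPM (log axis) of metabolic genes in the 3 intact (blue circles) and 3 dissociated (orange squares) libraries, with a line at the group mean. Hk2, Ldha, Pgm1, Odc1, Sat1 and Dgat1 lie higher in every dissociated library and the other genes lower, with Hk2 at 289 CPM or more against 20.8 CPM or less.

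RNA processing genes moved in both directions. The core spliceosome, the particle that removes introns, had 4 of 32 members higher and 10 lower and a median of -0.07, close to that of all genes. The SR proteins, which bind exons and recruit the spliceosome, had 11 of 21 higher and 2 lower (Srpk2, and Srsf1, whose call was lost without intact replicate 2 at an edgeR adjusted p of 0.052), with a median of 0.32; 5 were called lower under scaling by library size alone. The hnRNPs and tissue splicing regulators had 15 of 28 higher and 9 lower, with a median of 0.31 and a long lower tail.

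Sf3b1, the core protein that recognises the branch point with U2, was at 372, 414 and 385 CPM in tissue and at 691, 783 and 874 CPM after dissociation (1.00 ± 0.11, edgeR adjusted p = 0.00018). The other core members that rose were U2af2 (0.47), U2af1 (0.43) and Snrpd1 (0.33), the last lost when any library but dissociated replicate 1 was left out (edgeR adjusted p up to 0.15). Tra2a and Tra2b, SR-like regulators of exon inclusion, rose by 1.20 and 1.03, and Srsf2 by 0.91. Tra2a was at 77.6, 85.5 and 76.5 CPM in intact tissue and at 155, 179 and 217 CPM in dissociated bladder, with no overlap, which was a condition for naming it.

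The lowest of the 28 hnRNPs and tissue regulators was Rbpms2, an RNA-binding protein of smooth muscle. It was at 111, 108 and 106 CPM in intact tissue and at 15.6, 12.4 and 13.2 CPM after dissociation (-2.98 ± 0.10, edgeR adjusted p = 1.1e-06). Its paralog Rbpms went from 295, 302 and 298 CPM to 98.6, 92.2 and 100 CPM (-1.62 ± 0.07, edgeR adjusted p = 3.4e-06). Rbm24, a regulator of muscle exons, had -2.37. The part of the smooth muscle marker sum, which fell as given above, was not tested. In the opposite direction, Ptbp1, a repressor of many tissue-specific exons, rose from 180, 173 and 197 CPM to 404, 397 and 468 CPM (1.21 ± 0.10, edgeR adjusted p = 4.8e-05), and Hnrnph1 rose by 1.29. Outside the lists, Rbfox3, a splicing factor best known from neurons, was among the 10 lowest of all genes at a mean of 50 CPM or more, at 129, 120 and 105 CPM against 5.57, 4.14 and 2.49 CPM (-4.84 ± 0.24, edgeR adjusted p = 5.9e-06).

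For mRNA decay and 3' end processing 10 of 38 members were higher (26.3%) and 11 lower (28.9%), near the shares of all tested genes. The median of -0.01 changed sign under several settings. The extremes of the list were wide apart. Btg2, an antiproliferative protein that recruits the deadenylase that shortens poly(A) tails, was at 93.3, 95.5 and 108 CPM in tissue and at 1119, 1062 and 864 CPM after dissociation (3.36 ± 0.13, edgeR adjusted p = 1.9e-06). Its relative Btg1 rose by 1.73, and Smg1, the kinase of nonsense-mediated decay, by 1.10. Exosc4 of the RNA exosome fell (-1.26), as did Cstf1, which helps to cleave the 3' end (-0.94).

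Cytoplasmic ribosomal proteins form the ribosomes that translate nuclear transcripts. Of 56 cytoplasmic ribosomal protein genes 49 rose and 0 fell at the edgeR threshold, with a median of 0.35, and all 56 had every dissociated library above every intact one, which held for 30.9% of all tested genes. The shifts were small and alike: Rps14 was at 526, 491 and 498 CPM in tissue and at 695, 669 and 718 CPM after dissociation (0.46 ± 0.08, edgeR adjusted p = 0.0019). Under scaling by library size alone the median was 0.24 and 31 members were called higher. Rpl4 had the lowest margin among the named members (0.24, edgeR adjusted p = 0.042), and its call was lost when intact replicate 1, 2 or 3 or dissociated replicate 2 or 3 was left out. Many ribosomal protein genes have processed pseudogenes that can share reads, and how such reads were counted is not given.

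Ribosome biogenesis, the nucleolar assembly of ribosomes, showed 16 of 35 members higher and 2 lower (Polr1b and Pes1), with a median of 0.24; 10 were called higher without intact replicate 1, and 5 were called lower under scaling by library size alone and 4 under upper-quartile factors. Nop58, a core protein of the particles that methylate ribosomal RNA, was at 49.4, 51.4 and 55.8 CPM in tissue and at 229, 226 and 276 CPM after dissociation (2.22 ± 0.11, edgeR adjusted p = 3.9e-06). Its partner Nop56 rose by 1.23, the nucleolar GTPase Gnl3 by 1.44 and nucleolin, Ncl, by 0.63.

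Translation factors had 10 of 31 members higher (32.3%) and 4 lower (12.9%), with a median of 0.12. The share that rose was near the 27.9% of all tested genes, and the share that fell was below their 31.3%. Under scaling by library size alone 7 were called lower. The 3 largest rises were those of Eif1a, Eif1 and Eif4a1, which act in start codon selection and in unwinding the leader. Eif1 was at 196, 193 and 194 CPM in tissue and at 497, 493 and 573 CPM after dissociation (1.42 ± 0.09, edgeR adjusted p = 1.4e-05), Eif1a rose by 1.51 and the helicase Eif4a1 by 1.35. Of the 4 that fell, 3 restrain translation: Eef2k, the kinase that inhibits elongation, went from 180, 163 and 179 CPM to 92.5, 79.1 and 87.7 CPM (-1.01 ± 0.09, edgeR adjusted p = 6.5e-05), and the cap-binding inhibitors Eif4ebp1 and Eif4ebp2 had -0.84 and -0.73. The other one was Eif3b (-0.35), a call lost without intact replicate 1 or 3 or dissociated replicate 1 or 2 (edgeR adjusted p up to 0.062). Transfer RNA synthetases shifted little, with a median of -0.17; 8 of 20 fell, only Eprs rose (0.75), and 4 were called lower under RLE factors or without intact replicate 1 or 3, and 5 without dissociated replicate 2.

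The unfolded protein response is the programme by which a cell that holds misfolded protein in its endoplasmic reticulum slows translation and makes chaperones. Of 29 members 21 rose, 0 fell and 8 were not called at the edgeR threshold, with a median of 0.55 and Pdia4 lowest at -0.02. Promoters of this list and of the interferon list were examined because most members of each rose and each class has a well-known control element. The promoters of 4 members are shown, from RefSeq on build GRCm38.p6, each of 300 bases running from 250 before to 50 after the gene's start, 5′ to 3′ on the gene's strand. Capitals mark each match to the ER stress response element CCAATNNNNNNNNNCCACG in the first 2, and to the core of the interferon-stimulated response element, TTTCNNTTTC, in the last 2, both searched on both strands.
Hspa5: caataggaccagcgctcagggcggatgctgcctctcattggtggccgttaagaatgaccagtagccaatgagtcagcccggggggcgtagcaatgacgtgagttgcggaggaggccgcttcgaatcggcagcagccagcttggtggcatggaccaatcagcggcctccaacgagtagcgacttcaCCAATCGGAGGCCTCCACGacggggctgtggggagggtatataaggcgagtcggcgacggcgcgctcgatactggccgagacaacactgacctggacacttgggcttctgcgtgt
Hsp90b1: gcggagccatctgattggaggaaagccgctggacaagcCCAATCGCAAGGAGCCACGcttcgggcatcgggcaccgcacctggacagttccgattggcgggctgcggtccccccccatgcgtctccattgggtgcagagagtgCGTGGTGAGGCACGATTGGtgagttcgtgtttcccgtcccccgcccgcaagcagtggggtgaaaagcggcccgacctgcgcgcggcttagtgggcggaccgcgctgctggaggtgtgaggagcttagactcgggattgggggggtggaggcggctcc
Isg15: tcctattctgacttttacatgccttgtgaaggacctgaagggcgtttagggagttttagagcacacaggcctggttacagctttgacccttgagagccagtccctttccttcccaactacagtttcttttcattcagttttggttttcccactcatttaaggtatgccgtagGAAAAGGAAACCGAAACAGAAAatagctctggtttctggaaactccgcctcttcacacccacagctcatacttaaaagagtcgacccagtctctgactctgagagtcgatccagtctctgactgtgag
Cxcl10: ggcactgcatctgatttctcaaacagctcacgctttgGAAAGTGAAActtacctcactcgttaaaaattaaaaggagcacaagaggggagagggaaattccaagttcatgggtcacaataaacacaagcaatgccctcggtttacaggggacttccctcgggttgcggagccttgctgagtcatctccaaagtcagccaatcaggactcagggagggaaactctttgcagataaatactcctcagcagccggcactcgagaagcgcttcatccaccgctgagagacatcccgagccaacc
They lie at chr2:34771840-34772139 (+ strand), chr10:86705395-86705694 (- strand), chr4:156200769-156201068 (- strand) and chr5:92348840-92349139 (- strand).

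The match in Hspa5 begins 65 bases before the start and lies on the gene's strand. Hsp90b1 has 2 matches, beginning 212 and 107 bases before the start, the second on the opposite strand. Among the 25 members of the unfolded protein response that have a RefSeq promoter, 8 (32.0%) held the element, against 18 of 12103 tested genes with a promoter (0.149%), the members included. The list holds known genes of this response, so a high share of its known element was likely whatever these data showed. Of the 8 members that held it 6 rose, and of the 17 that did not 11 rose. A match describes the letters of this window and is not a measured binding site.

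Hspa5, the main chaperone of the endoplasmic reticulum, was at 291, 344 and 364 CPM in tissue and at 1071, 1058 and 1038 CPM after dissociation (1.67 ± 0.11, edgeR adjusted p = 1.4e-05). Hsp90b1, its HSP90 partner, rose less, from 379, 476 and 435 CPM to 578, 692 and 530 CPM (0.48 ± 0.13, edgeR adjusted p = 0.014, and 0.06 without intact replicate 1). The highest value was that of Ppp1r15a, which restores translation by removing the phosphate from eIF2 alpha. It went from 23.2, 22.5 and 25.3 CPM to 607, 465 and 515 CPM (4.48 ± 0.13, edgeR adjusted p = 6.9e-07). Atf4, a transcription factor made when eIF2 alpha is phosphorylated, rose by 2.34 and the co-chaperone Dnajb9 by 1.75. The ranges of these 5 genes did not overlap between the groups, which for Ppp1r15a, Atf4 and Dnajb9 was a condition for naming them.

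The proteasome degrades tagged proteins. Of 31 proteasome genes 17 fell and 0 rose at the edgeR threshold (median -0.23), with log2 fold changes from -0.46 for Psmc1, an ATPase of the regulatory particle, to 0.02 for Psma7. The median was between -0.34 and -0.18 over the scalings tried. The proteasome subunits Psmb8 and Psmb9 are not in this list but are counted among the interferon genes. Psmb8 rose (0.79, edgeR adjusted p = 0.0014) and Psmb9 was not called (0.35). In the autophagy and lysosome list 16 of 33 rose and 6 fell. The lysosomal protease Ctsl rose from 233, 207 and 214 CPM to 596, 491 and 538 CPM (1.31 ± 0.10, edgeR adjusted p = 3.6e-05), and the cargo receptor Sqstm1 by 1.01. The 3 lowest members were Atg14 (-0.83), Atg13 (-0.67) and Atg12 (-0.61), which act in forming the autophagosome. Macrophage markers (9 of 9 higher) rose beside the autophagy and lysosome list, and their part was not tested.

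Ion channels let charged atoms cross membranes and set how excitable a cell is. Of 32 potassium channel genes 10 rose and 18 fell (median -0.81), and of 31 genes for calcium channels and calcium handling 6 rose and 17 fell (median -0.35). Sodium, chloride and water channels lay on the other side, with 13 of 26 higher, 4 lower and a median of 0.37. Channels of the Trp, Piezo and purinergic families had 11 of 33 higher (33.3%) and 9 lower (27.3%), near the 27.9% and 31.3% of all tested genes. The smooth muscle marker sum was at 7.32% of its tissue level after dissociation; its part in the channel and receptor values was not tested.

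Potassium channels set the resting potential and end contraction by repolarising the muscle membrane. Kcng1, a silent subunit that modifies other voltage-gated channels, was at 44.4, 38.7 and 30.8 CPM in tissue and at 3.6, 3.05 and 1.79 CPM after dissociation (-3.74 ± 0.25, edgeR adjusted p = 2.2e-05). Abcc9, the sulfonylurea receptor of vascular and smooth muscle ATP-sensitive channels, fell by 0.63, from 146 to 172 CPM in tissue to 82.1 to 114 CPM. Abcc9 is also one of the 7 pericyte markers, of which 2 rose and 4 fell, and their part was not tested. On the rising side, Kcnj2, a strong inward rectifier, went from 3.07, 3.79 and 2.8 CPM to 11.6, 12.5 and 17.1 CPM (2.08 ± 0.20, edgeR adjusted p = 9.9e-05), and the two-pore channel Kcnk5 rose by 1.83.

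Calcium that drives contraction enters through membrane channels and is released from and pumped back into the sarcoplasmic reticulum. Casq2, which buffers calcium in that store, was at 87.2, 76.5 and 83.6 CPM in tissue and at 7.13, 6.63 and 3.1 CPM after dissociation (-3.86 ± 0.26, edgeR adjusted p = 2.2e-05). The calcium pump Atp2a2 fell far less, from 1128, 1092 and 994 CPM to 589, 546 and 596 CPM (-0.89 ± 0.09, edgeR adjusted p = 0.00014). The T-type channel genes went in opposite directions: Cacna1h was at 179, 175 and 161 CPM against 29.9, 29.9 and 16.9 CPM (-2.74), and Cacna1g at 5.35, 4.15 and 5.02 CPM against 22.3, 17.6 and 13.5 CPM (1.89, edgeR adjusted p = 0.00017). Both pairs of ranges were apart, which was a condition for naming these 2 genes.

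In the urothelium, sodium is taken up from urine through the epithelial sodium channel. Its gamma subunit Scnn1g fell from 51.9, 52.5 and 58.8 CPM to 18.2, 10.6 and 14.8 CPM (-1.91 ± 0.18, edgeR adjusted p = 0.0001), while the beta subunit Scnn1b had -0.35, a call lost without intact replicate 1 or 3 or dissociated replicate 1 or 2 (edgeR adjusted p up to 0.11), and the alpha subunit Scnn1a (-0.27) was not called. The 5 uroplakin genes among the urothelial markers, which mark its surface cells, fell beside them, with log2 fold changes from -1.81 to -0.82, and their part was not tested. Upk3b, at -0.82, is also counted among the mesothelial markers. Of the other urothelial markers Krt8 (1.01), Epcam (0.90) and Krt19 (0.55) rose and Trp63 (-0.43) fell. Krt20 (-0.64) was among those not called. The other sodium, chloride and water channel genes that fell were Ano10 and Clic5. Aqp3, a water and glycerol channel, rose from 423, 378 and 369 CPM to 542, 573 and 880 CPM (0.77 ± 0.19, edgeR adjusted p = 0.0086), highest in dissociated replicate 3, which also had the highest urothelial marker sum of the dissociated libraries. Nalcn, a sodium leak channel, and Scn7a, a sodium-sensing channel, rose by 1.52 and 1.13.

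P2rx1 is the channel through which ATP released from nerves contracts the detrusor. It was at 876, 902 and 797 CPM in intact tissue and at 43.2, 28.6 and 18.9 CPM in dissociated bladder (-4.82 ± 0.30, edgeR adjusted p = 1.4e-05). Both Piezo channels, which open on mechanical force, rose: Piezo1 from 105, 103 and 118 CPM to 187, 156 and 199 CPM (0.73 ± 0.11, edgeR adjusted p = 0.00092), and Piezo2 from 6.95, 9.71 and 13.1 CPM to 23.3, 33.7 and 19.4 CPM (1.36 ± 0.27, edgeR adjusted p = 0.0036).

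Gap junctions join the cytoplasm of neighbouring cells. Of 12 connexin and pannexin genes 4 rose and 2 fell (Gjb6 at -0.98 and Panx2 at -2.24), with 4 called lower without dissociated replicate 3. Gja1, connexin 43, was at 47, 44.7 and 56.2 CPM in tissue and at 190, 227 and 165 CPM after dissociation (1.98 ± 0.14, edgeR adjusted p = 2.5e-05). Gja4, a connexin of arterial endothelium, rose by 0.88. Gja1 is itself one of the 5 interstitial cell markers, of which 3 rose and 1 fell. Blood endothelial markers (7 of 8 higher) rose beside both connexins, and the part of these cell types was not tested.

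Receptors for transmitters and peptides moved in both directions. Of 40 tested members 15 rose (37.5%) and 11 fell (27.5%), against 27.9% and 31.3% of all tested genes, with a median of 0.37. Chrm3 and Chrm2 are the muscarinic receptors through which acetylcholine empties the bladder, and both fell. Chrm3 went from 37.6, 33.1 and 27 CPM to 4.38, 2.9 and 2.66 CPM (-3.29 ± 0.21, edgeR adjusted p = 1.7e-05), and Chrm2 from 26.7, 26.5 and 30.8 CPM to 1.82, 1.85 and 2.4 CPM (-3.79 ± 0.15, edgeR adjusted p = 1.8e-06). Tacr2, a tachykinin receptor of visceral muscle, was at 14.9, 17.7 and 17.3 CPM in tissue and at most 0.452 CPM in every dissociated library (-5.72 ± 0.34, edgeR adjusted p = 9.9e-06).

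Other receptors of the same class rose. Bdkrb2, the constitutive bradykinin receptor, went from 12.4, 8.4 and 16.7 CPM to 51.8, 46.5 and 93.6 CPM (2.37 ± 0.34, edgeR adjusted p = 0.00073). Ramp3, which modifies calcitonin-family receptors, rose by 3.32. Npy1r, a neuropeptide Y receptor, was at 93.7, 81.4 and 73.9 CPM in tissue and at 208, 159 and 173 CPM after dissociation (1.12 ± 0.13, edgeR adjusted p = 0.00025).

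Receptors for purines, lipids and prostanoids had 13 of 31 members higher and 4 lower, with a median of 0.52. The prostaglandin E2 receptor Ptger4 was at 10.2, 13.1 and 10.9 CPM in tissue and at 59.3, 59.5 and 73.8 CPM after dissociation (2.48 ± 0.13, edgeR adjusted p = 6.2e-06). F2r, the main thrombin receptor, rose by 1.87 and S1pr1, a sphingosine phosphate receptor, by 1.51. The adenosine receptors Adora2b and Adora1 fell (-1.48 and -1.33) and Adora2a rose (1.43). The other members that fell were the thromboxane receptor Tbxa2r (-1.14) and P2ry6 (-0.59), the last not called without intact replicate 1 or 3 or dissociated replicate 2 or 3 (edgeR adjusted p up to 0.089).

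Receptor tyrosine kinases, which read growth factors, were higher in 24 of 44 cases and lower in 9. Fibroblast markers (11 of 12 higher) and blood endothelial markers (7 of 8 higher, sums of 377 to 437 CPM against 661 to 786 CPM) rose beside them, and their part was not tested; Pdgfra is itself one of the former and Kdr and Tek are among the latter. Epha2, an ephrin receptor, had the largest named rise, from 24.7, 24.9 and 31.6 CPM to 185, 210 and 291 CPM (3.08 ± 0.19, edgeR adjusted p = 1.6e-05). Pdgfra, a platelet-derived growth factor receptor of fibroblasts and interstitial cells, went from 254, 256 and 212 CPM to 676, 510 and 488 CPM (1.21 ± 0.15, edgeR adjusted p = 0.00031). Kit, the stem cell factor receptor, found on interstitial and mast cells, was variable in tissue, at 56.2, 70.4 and 28.2 CPM, and lower in every dissociated library, at 7.95, 11.6 and 9.7 CPM (-2.41 ± 0.33, edgeR adjusted p = 0.00062).

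Cytokine and innate immune receptors were the receptor list with the highest share of risen members, 30 of 46 against 27.9% of all tested genes, with 2 lower (Tnfrsf19 and Tlr3) and a median of 0.81. Tnfrsf12a, the receptor of the cytokine TWEAK, was at 7.45, 5.8 and 17.1 CPM in tissue and at 123, 127 and 187 CPM after dissociation (3.88 ± 0.41, edgeR adjusted p = 0.00018). Il4ra, shared by the receptors of interleukins 4 and 13, went from 86.2, 69.1 and 70.5 CPM to 451, 400 and 454 CPM (2.53 ± 0.12, edgeR adjusted p = 3.4e-06). Il6st, the signalling subunit of the interleukin-6 family, was not called, at 663, 680 and 653 CPM against 683, 607 and 676 CPM (-0.02). The macrophage marker sum rose from 823 to 909 CPM to between 1071 and 1413 CPM beside these genes, and its part was not tested.

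Nuclear receptors, the ligand-controlled transcription factors, had 9 of 34 members higher and 12 lower, close to the background. Ppara, a regulator of fatty acid oxidation, and its partner Rxra fell (-1.01 and -0.80). Rora and Ppard rose by 0.91 and 0.82.

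**Figure D3:**
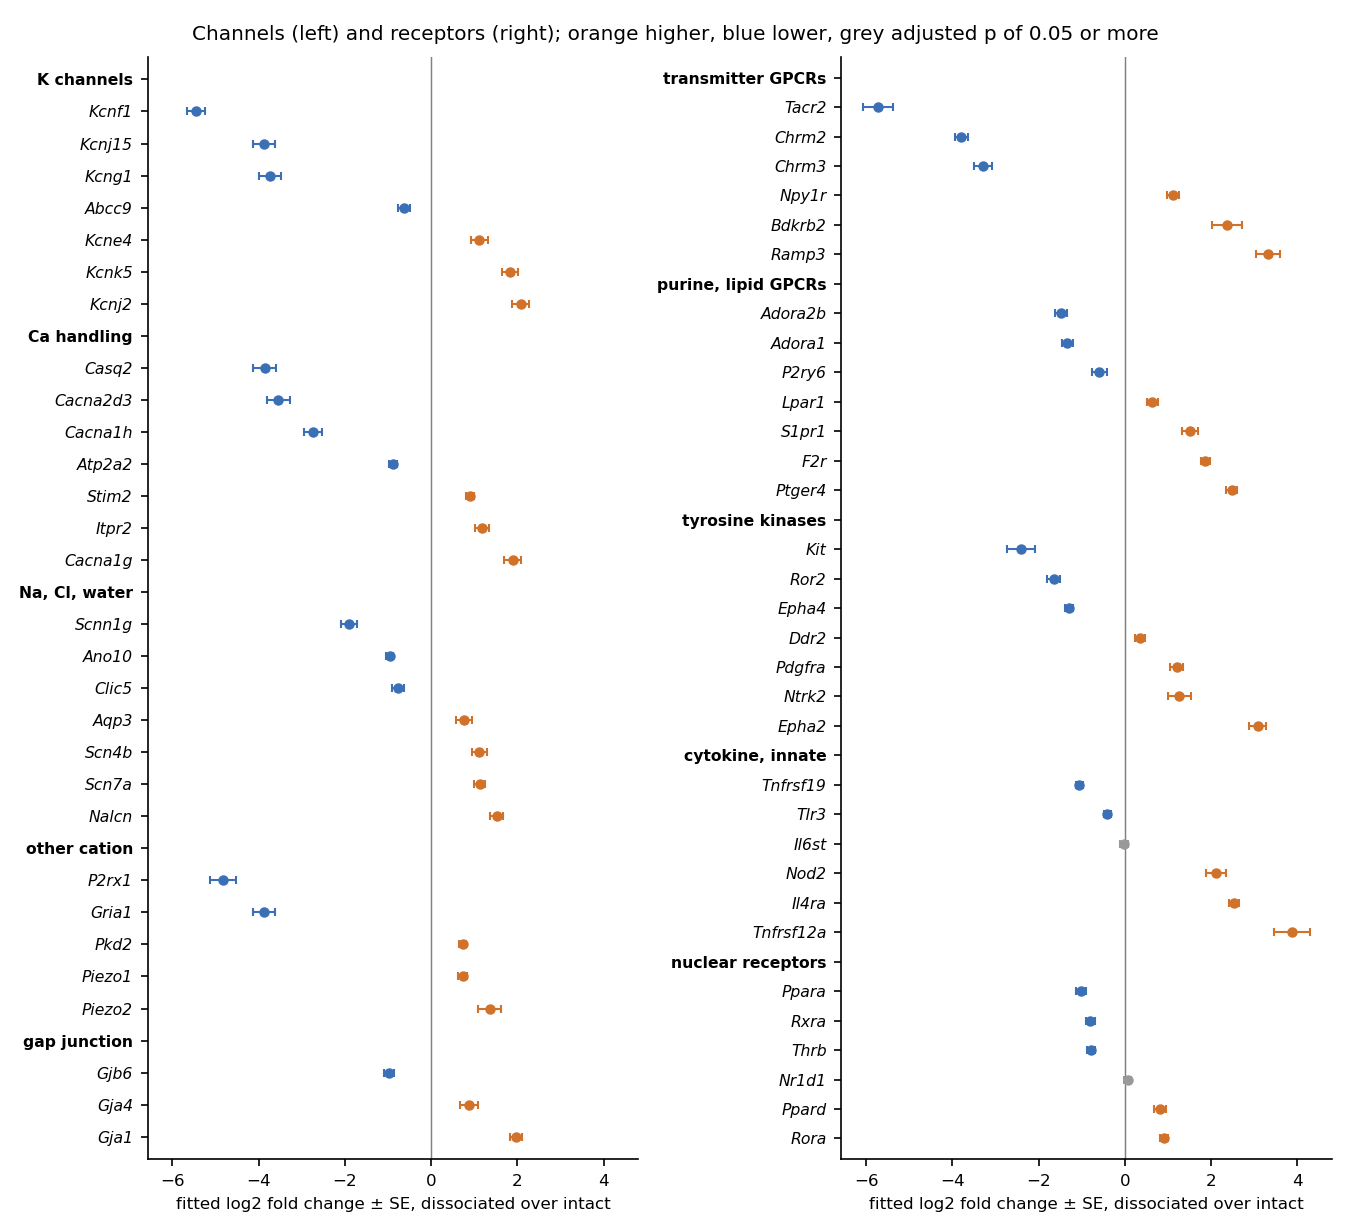
Fitted log2 fold change with its SE for named channels (left) and receptors (right), grouped by class; orange genes were called higher, blue genes lower, and grey genes had an adjusted p of 0.05 or more. Contractile receptors and channels such as Tacr2, P2rx1 and Chrm2 lie at -5.72, -4.82 and -3.79, while Tnfrsf12a, Ramp3 and Epha2 lie at 3.88, 3.32 and 3.08.

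In each of the 5 extracellular matrix lists more members rose than fell. Fibrillar and associated collagens had 16 of 17 tested members higher and 0 lower at the edgeR threshold (median 0.95). Elastic fibre and cross-linking genes had 19 of 25 higher and 1 lower, Ltbp1 (median 0.61), and matricellular and adhesive glycoproteins 24 of 34 higher and 2 lower, Sparcl1 and Wisp2 (median 0.78), with 4 called lower without dissociated replicate 2. Matrix proteases and their inhibitors had 25 of 35 higher and 4 lower, with the highest median of all lists. Basement membrane genes had 16 of 29 higher and 2 lower (median 0.54), with 10 called higher without intact replicate 2. The fibroblast marker sum given above rose beside them, and its part was not tested; 6 of its 12 genes, Col1a1, Col1a2, Col3a1, Dcn, Lum and Mfap5, are also members of the matrix lists.

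Col1a1 and Col1a2 encode the chains of type I collagen. Col1a1 was at 3419, 2670 and 2618 CPM in tissue and at 7527, 5453 and 5225 CPM after dissociation (1.06 ± 0.18, edgeR adjusted p = 0.0014), and Col1a2 rose by 1.03. Col14a1, which binds fibril surfaces, went from 585, 536 and 467 CPM to 1672, 1267 and 1046 CPM (1.33 ± 0.18, edgeR adjusted p = 0.00052). Dissociated replicate 1 was the highest library for each of these 3 genes.

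Basement membranes are thin sheets of laminin and type IV collagen under epithelia and around muscle cells. The laminin chain Lama2, of muscle and nerve basement membranes, rose from 136, 150 and 122 CPM to 544, 412 and 390 CPM (1.72 ± 0.15, edgeR adjusted p = 5.8e-05). The main collagen IV chains went the other way or were not called, with Col4a2 at -0.56 (edgeR adjusted p = 0.01) and Col4a1 at -0.28 (edgeR adjusted p = 0.12). Frem2 and Frem1, relatives that anchor epithelia to mesenchyme, parted: Frem2 fell from 54.4, 70.6 and 60.9 CPM to 10.8, 9.19 and 7.34 CPM (-2.77 ± 0.16, edgeR adjusted p = 8.7e-06), and Frem1 rose by 1.38.

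Elastic fibres let the wall stretch and recoil. Fbn1, the main microfibril protein, was at 162, 150 and 151 CPM in tissue and at 662, 485 and 394 CPM after dissociation (1.74 ± 0.18, edgeR adjusted p = 0.00016). Lox, which cross-links collagen and elastin, went from 42.2, 34.3 and 50.6 CPM to 128, 131 and 141 CPM (1.66 ± 0.14, edgeR adjusted p = 5.2e-05). Among matricellular proteins, Thbs1, thrombospondin 1, rose from 123, 135 and 232 CPM to 1623, 2042 and 2497 CPM (3.66 ± 0.29, edgeR adjusted p = 4.6e-05), and Cyr61, an integrin ligand, by 3.66. The small proteoglycan Dcn rose by 1.52 and the large one, Vcan, by 1.79.

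The largest rise of the matrix lists was that of a protease. Adamts4, which cleaves aggrecan and versican, was at 9.6, 9.63 and 8.04 CPM in intact tissue and at 855, 701 and 885 CPM in dissociated bladder (6.48 ± 0.15, edgeR adjusted p = 4.3e-07). Plaur, the urokinase receptor, went from 7.41, 6.45 and 9.26 CPM to 152, 189 and 232 CPM (4.65 ± 0.21, edgeR adjusted p = 3.5e-06). Timp2, an inhibitor of metalloproteinases, rose by 0.88. The membrane-anchored metalloproteinases Mmp17 (-2.18) and Mmp15 (-0.58) fell, while Mmp14 and Mmp16, also membrane-anchored, rose by 1.09 and 1.65. Adamts8 (-0.79) and Adamts15 (-0.72) fell as well. The call of Adamts8 was lost without intact replicate 1 (edgeR adjusted p = 0.051), and that of Adamts15 without intact replicate 1 or 3 or dissociated replicate 2 or 3 (up to 0.12).

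**Figure D4:**
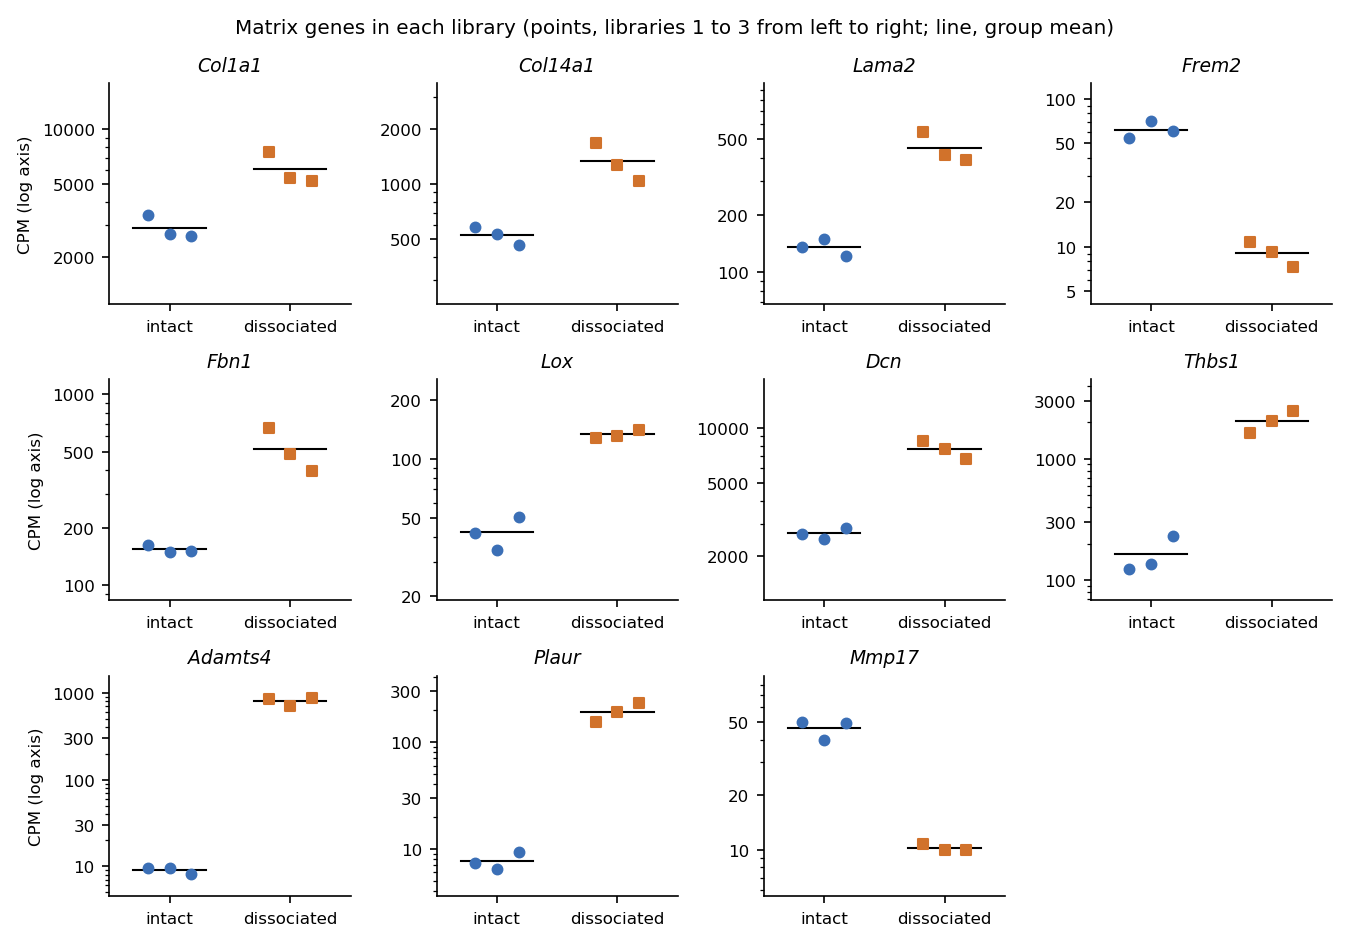
CPM (log axis) of matrix genes in the 3 intact (blue circles) and 3 dissociated (orange squares) libraries, with a line at the group mean. Frem2 and Mmp17 lie lower in every dissociated library and the other genes higher, and Adamts4 is at 701 CPM or more against 9.63 CPM or less.

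Cell-cycle genes comprised regulators and the machinery of replication and division. Of 32 regulators of the G1/S step 12 rose and 4 fell (Mycl, Ccnd1, Cdkn2c and Cdkn2a); 7 were called lower under scaling by library size alone. Of these Cdkn2a was lost when any library but intact replicate 3 was left out (edgeR adjusted p up to 0.19), and Cdkn2c without intact replicate 2 or 3 or dissociated replicate 1 or 3 (up to 0.13). Myc, which drives growth, was at 21.8, 24.6 and 24.3 CPM in tissue and at 155, 166 and 161 CPM after dissociation (2.77 ± 0.08, edgeR adjusted p = 6.9e-07). Cdkn1a, the inhibitor p21, which stops the cycle, rose as well, from 74.7, 71.4 and 71 CPM to 398, 361 and 473 CPM (2.50 ± 0.12, edgeR adjusted p = 3.4e-06). Ccnd1, cyclin D1, went from 103, 89 and 93.3 CPM to 56.8, 47.4 and 69.1 CPM (-0.72 ± 0.14, edgeR adjusted p = 0.0028).

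DNA replication genes were higher in 13 of 34 cases and lower in 4 (Rpa1, Rfc3, Mcm7 and Rfc1), with 8 called higher without intact replicate 1. The call of Mcm7 was lost when any library but dissociated replicate 2 was left out (edgeR adjusted p up to 0.12), and that of Rfc1 without intact replicate 2 or 3 or dissociated replicate 3 (up to 0.087). Pcna, the sliding clamp of DNA polymerase, rose from 41, 43.8 and 43.2 CPM to 113, 125 and 134 CPM (1.54 ± 0.09, edgeR adjusted p = 7.8e-06). Of 34 mitosis genes 6 rose and 2 fell (Cdc25a, and Bub3 at -0.20, a call lost when any library but dissociated replicate 3 was left out and under RLE factors or DESeq2) and the median was 0.57. The shares called, 17.6% higher and 5.88% lower, were both below those of all tested genes. The median was nonetheless above the upper quartile of all tested genes, 0.52. The 34 genes together summed to 270.3 to 329 CPM in tissue, so many were at a few CPM. The part of low counts in the low shares called was not tested. The proliferation marker Mki67 was at 6.86, 22.2 and 8.89 CPM in tissue and at 37, 60.9 and 13.6 CPM after dissociation; the ranges overlapped and it was not called (1.52 ± 0.59, edgeR adjusted p = 0.057). Top2a, at 8.71, 15.7 and 7.19 CPM against 21.1, 37.8 and 8.78 CPM, was not called either (1.08, edgeR adjusted p = 0.1). Mki67 and Top2a were chosen after their values were seen.

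The mitosis count depended on single libraries. With dissociated replicate 3 left out 18 of 34 members were called higher, and with dissociated replicate 2 left out 4. Dissociated replicate 2 had the highest mitosis sum, 500.4 CPM, against 366 and 319 CPM in the other 2. It also had the highest B cell and T cell marker sums, 409 and 126 CPM, against 14.9 to 69.9 CPM and 31.8 to 33.3 CPM in the others, and intact replicate 1 had the lowest, 6.48 and 13.3 CPM. The part of lymphocyte RNA in the cell-cycle values was not tested.

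**Figure D5:**
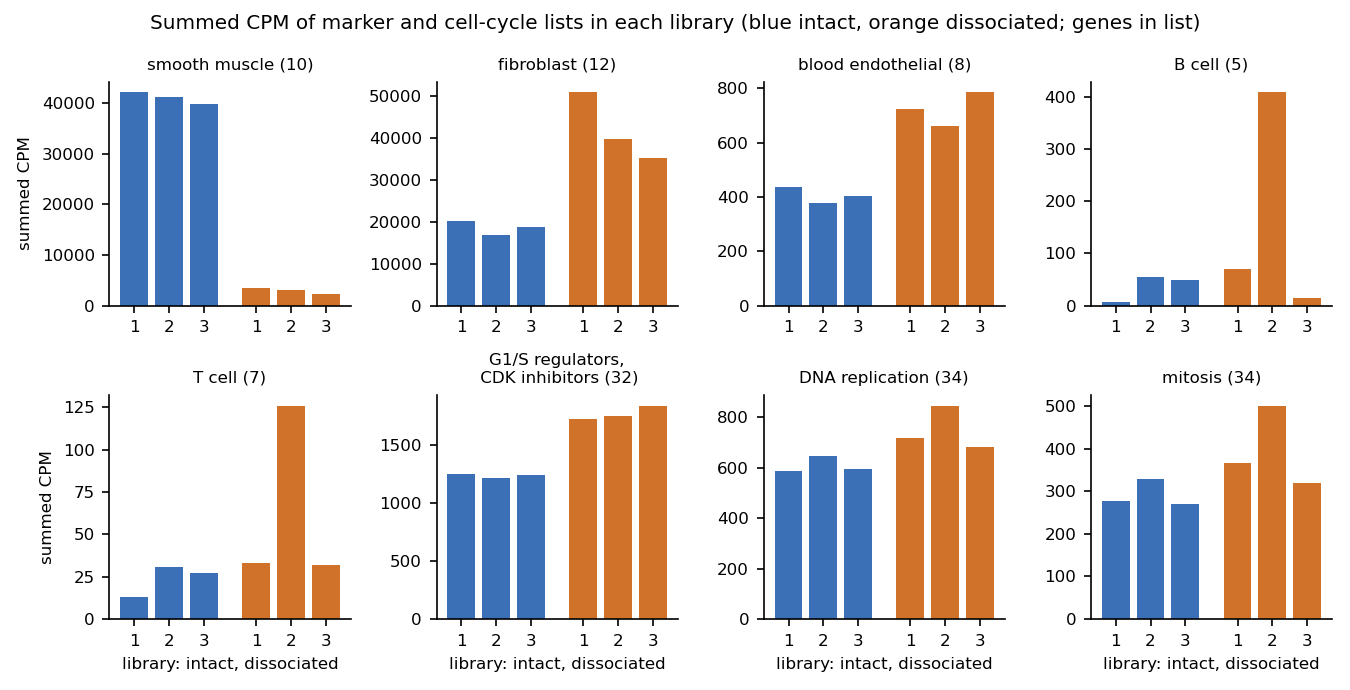
Summed CPM (vertical axes from 0) of 5 marker lists and 3 cell-cycle lists in each of the 3 intact (blue) and 3 dissociated (orange) libraries, with the number of tested genes in brackets. B cell markers reach 409 CPM in dissociated replicate 2 and at most 69.9 CPM in the others, and the mitosis sum is also highest there, while the G1/S sums of the 3 dissociated libraries are alike.

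Targets of p53 and growth arrest genes rose in 12 of 22 cases and fell in 6, with a median of 0.65. Gadd45b, a sensor of stress and DNA damage, was at 5.64, 8.49 and 8.19 CPM in tissue and at 252, 220 and 231 CPM after dissociation (4.96 ± 0.16, edgeR adjusted p = 1.1e-06), and Plk3, a stress-activated kinase, rose by 3.34. Among the 6 that fell were Zmat3, an RNA-binding protein (-0.75), and Ccng1, cyclin G1 (-0.62). The regulator Mdm4 was not called (0.12).

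The circadian clock is a daily loop of transcription factors that repress their own genes. Of 17 members 9 rose and 3 fell (Hlf, Bhlhe41 and Per3). Nfil3 went from 7.32, 6.04 and 9.63 CPM to 96.2, 92.3 and 103 CPM (3.68 ± 0.17, edgeR adjusted p = 3.4e-06) and Bhlhe40 from 46.9, 38.3 and 46.7 CPM to 378, 348 and 361 CPM (3.05 ± 0.11, edgeR adjusted p = 1.2e-06). Per1, a repressor of the loop that is also induced acutely, rose by 2.49, while Per3 fell by 0.40, a call lost without intact replicate 1 or 2 or dissociated replicate 2. Nr1d1, the repressor REV-ERB alpha, was not called, at 217, 197 and 203 CPM against 206, 210 and 233 CPM. The hour at which each library was taken is not given.

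Interferon-response genes, which cells use against viruses, were higher in 28 of 34 cases, with a median of 0.86; 1 fell, Ifi27, at -0.25, and that call was lost under 10 of the alternatives other than the fold-change minimum, among them each library left out but dissociated replicate 2. Cxcl10, a chemokine that draws T cells, was at 0.926, 1.74 and 2.1 CPM in tissue and at 72.9, 65.2 and 63.1 CPM after dissociation (5.36 ± 0.22, edgeR adjusted p = 2.4e-06). Isg15, a ubiquitin-like modifier, went from 2.99, 2.77 and 3.84 CPM to 20.6, 17.5 and 24.2 CPM (2.71 ± 0.18, edgeR adjusted p = 1.7e-05), and H2-D1, a class I antigen-presenting molecule, rose by 0.84. Macrophage markers (9 of 9 higher) and blood endothelial markers (7 of 8 higher) rose beside the list. H2-D1 was highest in dissociated replicate 2, at 1076 CPM against 927 and 965 CPM in the other 2, the library with the highest B cell and T cell marker sums, whereas Cxcl10 and Isg15 were not highest there. The part of these cell types was not tested. In the promoters shown above, Isg15 has 3 overlapping matches to the response element core, beginning 78, 72 and 66 bases before the start, and Cxcl10 has 1, beginning 213 bases before it. The core was held by 14 (50%) of the 28 members that have a RefSeq promoter, against 3.89% of the 12103 tested genes with a promoter, the members included. Each of those 14 rose, as did 12 of the 14 without it. These members too are known genes of the response, so a high share of the core was likely whatever these data showed.

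Genes that modify histones and remodel chromatin rose in 26 of 50 cases and fell in 9, with a median of 0.31. Kdm6b, a demethylase of histone H3 lysine 27, was at 58.8, 54.6 and 56 CPM in tissue and at 503, 424 and 464 CPM after dissociation (3.04 ± 0.10, edgeR adjusted p = 8.5e-07). Arid5a, counted in this list and known to stabilise inflammatory transcripts, rose by 3.75. Brd2, a reader of acetylated histones, rose by 1.65, from 229, 236 and 253 CPM to 728, 701 and 827 CPM. Of the paralogous methylases of the same lysine, Ezh1 fell by 0.62 and Ezh2 rose by 0.53. The remodelling ATPase Smarca4 fell by 0.52.

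Besides these lists, some of the lowest values among all genes at a mean of 50 CPM or more belonged to genes of other functions. Rims1, a scaffold of synaptic vesicle release, was at 122, 127 and 108 CPM in tissue and at 5.2, 3.92 and 2.93 CPM after dissociation (-4.88 ± 0.19, edgeR adjusted p = 1.9e-06). Ank1, an ankyrin that links the membrane and the sarcoplasmic reticulum to the cytoskeleton, went from 263, 266 and 230 CPM to 16.1, 10.2 and 5.77 CPM (-4.55 ± 0.33, edgeR adjusted p = 3e-05), and Fhod3, a formin of muscle, from 153, 161 and 157 CPM to 11.5, 8.97 and 6.86 CPM (-4.10). The 10 smooth muscle markers, with log2 fold changes from -4.36 to -3.04, fell beside Rims1, Ank1 and Fhod3, and their part was not tested. At the other end, Tnfaip6, which binds hyaluronan, went from 0.547, 0.558 and 0.848 CPM to 95.4, 116 and 96.6 CPM (7.34 ± 0.17, edgeR adjusted p = 4.3e-07), and the growth factor Areg from 0.968, 1.13 and 1.36 CPM to 73.3, 154 and 189 CPM (6.90 ± 0.42, edgeR adjusted p = 1.4e-05).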

How the data were processed

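Bulk RNA sequencing of 3 intact and 3 dissociated bladder libraries was used; the single-cell, nuclei and spatial tables were not used here. The authors deposited raw read counts per gene symbol. Per the submitters' processing notes, mm10, Subread and featureCounts were named among the builds and tools; the annotation and the strand setting are not given in the sources used here. Counts were tested with edgeR 4.0.16 (robust quasi-likelihood fit, TMM factors, filterByExpr, two-sided) and adjusted by Benjamini-Hochberg over 16538 of 29214 genes, with a threshold of 0.05. SE is |log2 fold change| over the root of the F statistic. Totals of 23083752 to 68760791 reads limit precision for genes near 1 CPM. Alternatives were other scalings, filters, DESeq2 1.42.0, a fold-change minimum, a replicate block, thinning of intact replicate 2, leaving out mitochondrial genes and leaving out each library. Members and lists were chosen with earlier results of these data known; 4 members were matched through an older symbol. Named genes were, per list, up to 3 rises and 3 falls (adjusted p under 0.05, mean of at least 5 CPM, no overlap), the most abundant member, all members of lists of up to 15, and the 10 largest changes each way at a mean of at least 50 CPM. For genes named as rises or falls, the lack of overlap follows from this choice and is no further result. Cpt1b, Pgam2, Sod2, Snrpd1, Eif3b, Hsp90b1, Pdia4, Scnn1b, Tbxa2r, Wisp2, Adamts8, Adamts15, Cdkn2a, Cdkn2c, Rfc1, Mki67, Top2a, Ezh2, Mmp14, Mmp16, Adora2a, Scnn1a and the named markers fell outside that rule and were chosen after their values were seen. Some genes that the rule names are not reported here; counts and medians of their lists include them.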

Additional observations from a re-analysis of the deposited data

How the results depend on the processing

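With a log2 fold-change minimum of 1, 1789 genes were called, 971 higher and 818 lower. Leaving out 1 library at a time gave 8128 to 9782 called genes, 3793 to 4665 higher and 4335 to 5117 lower. The other alternatives stayed within 1.5 times the reported counts, with 7333 calls of 11078 genes at 10 CPM or more in 3 libraries. The replicate number as a block gave 10011 calls; labels do not pair the libraries, and same-number correlations of deviations were 0.28, 0.378 and -0.05, with dissociated replicate 3 closest to intact replicate 1 (0.298). The block raised the mitosis genes called higher to 11. Scaling by library size alone gave 3836 higher and 6175 lower. No named gene that was called changed direction under these alternatives. The list medians that changed sign were those of mRNA decay, of one-carbon metabolism under the 10 CPM filter (-0.05) and of cholesterol synthesis without dissociated replicate 3 (-0.01); the cause was not tested. Under the 10 CPM filter, which tests fewer genes, 8 transmitter receptors were called higher and 7 lower, 2 mitosis and 8 DNA replication genes higher, 5 other cation channels and 2 purine or lipid receptors lower, and 2 gap junction genes higher.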
